A study of Mus musculus with 12 samples.

Results

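Glucocorticoids, corticosterone in mice, act through the glucocorticoid receptor, a ligand-activated transcription factor. Unbound receptor is held in the cytoplasm by a chaperone complex of heat shock proteins and immunophilins, and hormone sends it to the nucleus, where it binds palindromic response elements and raises or lowers transcription of nearby genes. Many of the genes it raises feed back on the hormone signal, redirect fuel use or slow growth.

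The 9 genes described here are the receptor gene Nr3c1 and 8 of its known targets: Zbtb16, Fkbp5, Plin4, Ddit4, Tsc22d3, Sgk1, Pdk4 and Cdkn1a. They are 9 of the 44345 gene names in the count tables of dorsal root ganglia (DRG), which hold the cell bodies of sensory neurons. The set was chosen by measured values of these libraries, namely each gene's level, its difference with housing in each preparation and its difference within sequencing lanes. Those values are therefore a description, with no test read from them.

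C57BL/6 mice aged 5 to 8 weeks spent 10 days either under environmental enrichment (EE), meaning cages with more stimuli, or under standard housing (SH). The sciatic ganglia gave 4 groups of 3 libraries. A library of whole ganglia pooled 2 mice and was made with a TruSeq mRNA kit. A library of captured neurons came from 3 mice, whose toluidine-blue-stained neurons of at least 30 µm in diameter were cut out by laser, and was made with a RiboZero ScriptSeq kit. The labels name no altered allele and no drug. Whole-ganglion libraries of the same number shared a sequencing lane (lanes 4, 5 and 6). Among captured libraries, lane 3 held SH 1, SH 3, EE 2 and EE 3, lane 2 held SH 2 and lane 1 held EE 1.

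Whole-ganglion libraries held 11343579 to 17036481 reads in genes and captured libraries 19296230 to 29434351. Levels are given in CPM, read counts scaled to library size with TMM factors. No label says that the mice of different libraries were separate, so each p-value measures only how far these libraries scatter, and that scatter may be technical. In RNA from many cells, fewer cells of a type and less RNA per cell cannot be told apart. Summed markers of sensory neurons reached 6930 to 7424 CPM in whole ganglia and 3903 to 4683 CPM in captured neurons, and no marker of that list was at 0 in all libraries. Markers of large neurons summed to 12160 to 14230 CPM in whole ganglia and 7381 to 13340 CPM in captured neurons. The range of that sum in captured libraries was thus not above that in whole ganglia. The sum is carried by Nefh, Nefl and Nefm, and single genes of the list differed. Ntrk3 had 251 to 404 reads per library in whole ganglia and 2404 to 3224 in captured neurons. Pvalb had 1295 to 1929 reads in whole ganglia and 674 to 1708 in captured neurons. Nociceptor markers, of mostly small neurons, summed to 2172 to 3286 CPM in captured neurons and 2894 to 3258 CPM in whole ganglia. Schwann cell markers summed to 5997 to 8620 CPM in whole ganglia and 825 to 1144 CPM in captured neurons. Captured SH library 2 stood apart by skeletal muscle markers, at 752.9 CPM against 3.21 to 14.2 CPM in the other captured libraries. In whole ganglia that sum ran from 3.89 to 205 CPM, with EE library 2 the highest.

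All 9 genes passed the filter on low counts in both preparations. With housing, Zbtb16 was higher in every EE library of whole ganglia than in any SH library, and it was the only one of the 9 whose whole-ganglion groups did not overlap. Plin4 and Fkbp5 were higher in EE and Ddit4 was lower in EE within each lane pair of whole ganglia. In captured neurons, Zbtb16 and Fkbp5 had lower means in EE, Plin4 was high in 1 EE library, and the groups of all 4 genes overlapped.

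**Figure D1:**
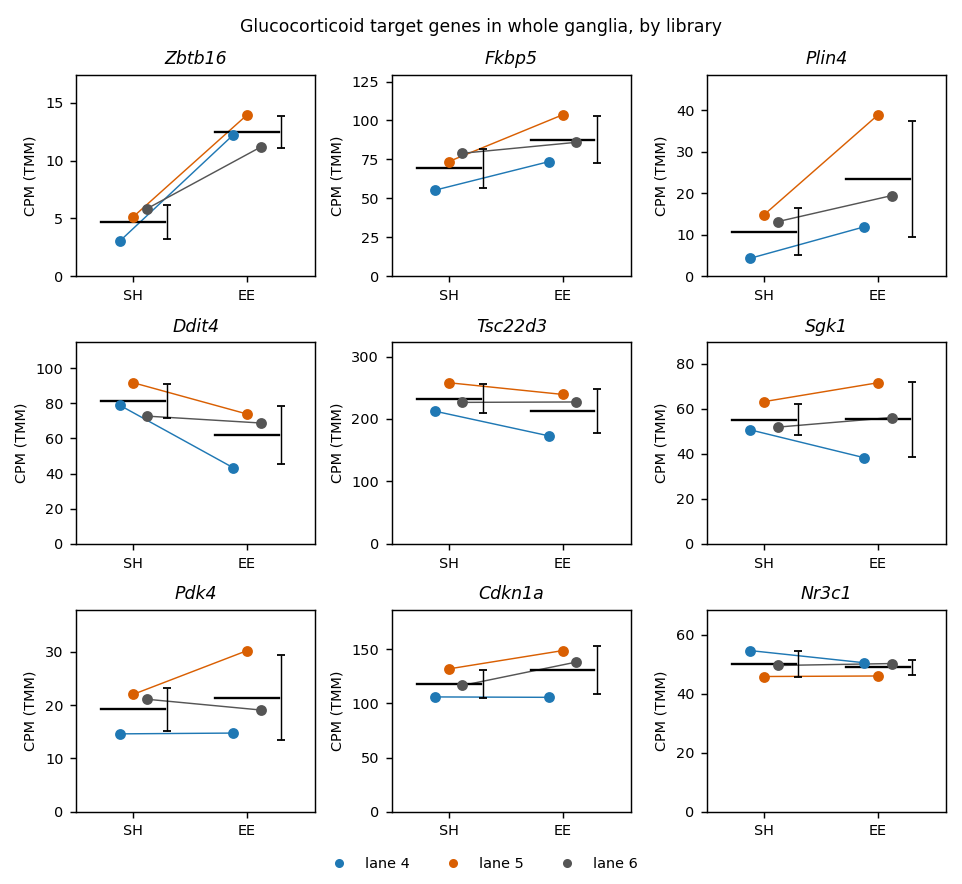
Level of each of the 9 genes in whole ganglia, in CPM on the vertical axis of each panel, with SH and EE on the horizontal axis. Each point is a library, lines join libraries of the same lane, and bars are the group mean and SD over 3 libraries. Zbtb16 lies between 3.00 and 5.83 CPM in SH and between 11.2 and 14.0 CPM in EE.

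The receptor gene comes first. Nr3c1 (ENSMUSG00000024431, chromosome 18, 39410545 to 39519421, minus strand, positions of GRCm38 throughout) had 54.6, 45.8 and 49.6 CPM in the whole-ganglion SH libraries 1 to 3. In EE it had 50.5, 46.0 and 50.2 CPM. The groups overlapped, and their difference was -0.035 on the log2 scale of the fit (SE 0.080, n = 3 each), and 0.035 without SH library 1. It was the steadiest of the 9 genes between whole-ganglion libraries, its highest value lying 1.19-fold above its lowest in SH and 1.10-fold in EE. In captured neurons Nr3c1 had 85.0, 83.4 and 82.6 CPM in SH and 68.9, 74.5 and 74.7 CPM in EE. There every EE library lay below every SH library, with means of 83.7 ± 1.22 and 72.7 ± 3.30 CPM (SD, n = 3 each) and a log2 difference of -0.20 (SE 0.066). Within lane 3 alone, which held 2 captured libraries of each housing, the difference was -0.17 (SE 0.068).

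Fkbp5 encodes FKBP51, an immunophilin of the receptor's chaperone complex that lowers its affinity for hormone, and is itself induced by the receptor in a feedback loop. The gene (ENSMUSG00000024222) lies on chromosome 17, from 28399094 to 28517527 on the minus strand. Whole ganglia had 55.2, 73.6 and 78.9 CPM in SH and 73.5, 104 and 85.9 CPM in EE. The groups overlapped, since EE library 1 lay below SH libraries 2 and 3, but within each lane EE was the higher. The means were 69.2 ± 12.4 and 87.7 ± 15.1 CPM (SD, n = 3 each), a log2 difference of 0.35 (SE 0.13), with 0.20 without SH library 1 and 0.21 without EE library 2. By lane, the log2 ratio was 0.41, 0.49 and 0.12 in lanes 4, 5 and 6 (0.5 CPM added to both values of a ratio). Captured neurons had 36.3, 38.9 and 39.1 CPM of Fkbp5 in SH and 35.6, 26.8 and 38.4 CPM in EE. EE library 2 was the low one there. The log2 difference was -0.18 (SE 0.12) with all libraries and -0.035 without EE library 2.

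Zbtb16 encodes PLZF, a zinc-finger transcriptional repressor that many tissues induce in response to glucocorticoids. The gene (ENSMUSG00000066687) spans chromosome 9 from 48654297 to 48836222 on the minus strand. In whole ganglia it had 3.00, 5.12 and 5.83 CPM in SH, from 51, 71 and 87 reads. In EE it had 12.2, 14.0 and 11.2 CPM, from 136, 182 and 137 reads. The lowest EE library thus lay above the highest SH library. The means were 4.65 ± 1.47 and 12.5 ± 1.41 CPM (SD, n = 3 each), with a fitted log2 difference of 1.43 (SE 0.19), or 2.70-fold. The log2 ratio was 1.86, 1.36 and 0.88 in lanes 4, 5 and 6. Leaving out 1 library moved the difference between 1.18 (without SH library 1) and 1.64 (without SH library 3). On log2 of the authors' FPKM with 1 added, limma gave 0.85.

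In captured neurons Zbtb16 had 13.7, 7.01 and 15.7 CPM in SH and 8.72, 8.94 and 11.8 CPM in EE. SH library 2, the one with muscle transcripts, was the lowest, and the groups overlapped. The log2 difference was -0.30 (SE 0.26), -0.58 without SH library 2 and -0.073 without SH library 3. Within lane 3 it was -0.50 (SE 0.16).

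Plin4 encodes perilipin 4, a coat protein of lipid droplets that is abundant in white fat cells. The gene (ENSMUSG00000002831) lies on chromosome 17 from 56100591 to 56109803 on the minus strand. Its exons overlap those of Hdgfl2, listed in the tables as Hdgfrp2, on the opposite strand. Whether counting used strand is not given in the sources used here, so how reads on the shared bases were counted is not known. Hdgfrp2 itself had a log2 difference with housing of 0.10 (SE 0.095) in whole ganglia and 0.22 (SE 0.089) in captured neurons.

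Plin4 had 4.30, 14.8 and 13.1 CPM in whole-ganglion SH libraries and 11.9, 38.9 and 19.4 CPM in EE libraries. EE library 2 was the highest by far and SH library 1 the lowest, and EE library 1 lay below SH libraries 2 and 3. The spread within a group was wide, the highest library lying 3.44-fold above the lowest in SH and 3.27-fold in EE. Means were 10.7 ± 5.64 and 23.4 ± 13.9 CPM (SD, n = 3 each), a log2 difference of 1.16 (SE 0.38). Within lanes 4, 5 and 6 the log2 ratio was 1.37, 1.36 and 0.55, so each lane had more Plin4 in EE. Without EE library 2 the difference was 0.57, and without EE library 1 it was 1.47.

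Fat-cell transcripts varied beside Plin4. The 6 adipocyte markers (Adipoq, Plin1, Cidec, Cfd, Retn and Adig) were all detected in whole ganglia and summed to 5.83, 15.3 and 12.1 CPM in SH and to 5.04, 23.4 and 9.70 CPM in EE. The library with the highest Plin4, EE library 2, also had the highest marker sum. In lanes 4 and 6, however, the marker sum was lower in EE than in SH while Plin4 was higher in EE. In captured neurons Plin4 had 1.97, 2.17 and 2.22 CPM in SH and 1.66, 1.12 and 4.36 CPM in EE, on 22 to 95 reads. The captured marker sum was 0.403, 0.283 and 0.983 CPM in SH and 5.00, 0.457 and 5.51 CPM in EE. EE library 3 was highest in both, whereas EE library 1 had a high marker sum and low Plin4. The log2 difference of Plin4 in captured neurons was 0.16 (SE 0.43), and -0.59 without EE library 3. The part of fat-cell RNA in the Plin4 values was not tested.

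**Figure D2:**
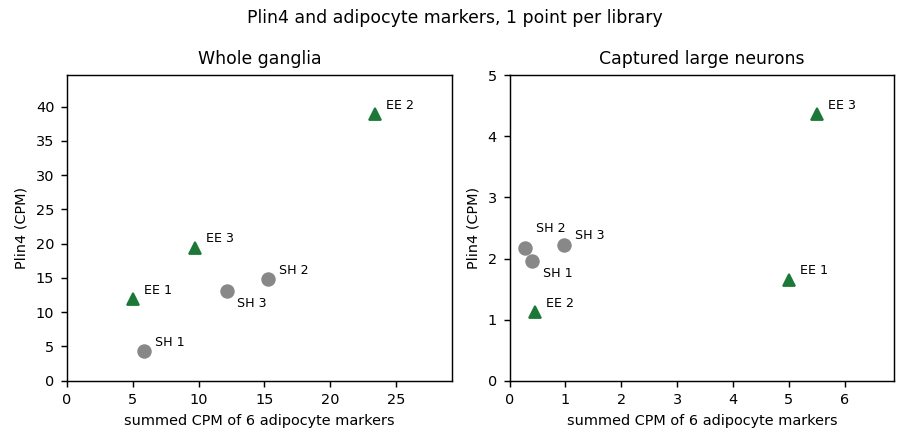
Plin4 level (CPM, vertical axis) against the summed CPM of 6 adipocyte markers (horizontal axis) in whole ganglia and in captured neurons, with 1 labelled point per library, circles for SH and triangles for EE. Whole-ganglion EE library 2 is highest on both axes, and captured EE library 1 has a marker sum of 5.00 CPM at 1.66 CPM of Plin4.

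Pdk4 encodes a kinase that inactivates the pyruvate dehydrogenase complex and spares glucose. The gene (ENSMUSG00000019577) lies on chromosome 6 from 5483351 to 5496309, minus strand. Whole ganglia had 14.6, 22.0 and 21.1 CPM in SH and 14.8, 30.2 and 19.1 CPM in EE. EE library 2 was again the highest, and the groups overlapped. The log2 difference was 0.17 (SE 0.20), -0.17 without EE library 2 and -0.0027 without SH library 1. In captured neurons Pdk4 had 4.54, 4.10 and 5.59 CPM in SH and 4.22, 6.20 and 5.51 CPM in EE, a log2 difference of 0.16 (SE 0.20) between overlapping groups.

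Ddit4 encodes REDD1, an inhibitor of mTORC1 that is induced by glucocorticoids and by other stresses. The gene (ENSMUSG00000020108) lies on chromosome 10 from 59949669 to 59951834, minus strand. It had 79.0, 91.7 and 72.7 CPM in whole-ganglion SH libraries and 43.3, 73.9 and 68.8 CPM in EE libraries. EE library 1 was far the lowest, and EE library 2 lay above SH library 3. The means were 81.2 ± 9.68 and 62.0 ± 16.4 CPM (SD, n = 3 each), a log2 difference of -0.38 (SE 0.15). The direction, lower in EE, was opposite to that of Zbtb16, Plin4 and Fkbp5 and held in each lane, at -0.86, -0.31 and -0.079 in lanes 4, 5 and 6. Without EE library 1 the difference was -0.18. Captured neurons had 7.91, 7.49 and 11.8 CPM in SH and 7.26, 12.1 and 10.8 CPM in EE, a log2 difference of 0.14 (SE 0.22), which was -0.0044 without EE library 2 and 0.38 without SH library 3.

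Cdkn1a encodes p21, an inhibitor of cyclin-dependent kinases. The gene (ENSMUSG00000023067) lies on chromosome 17 from 29090976 to 29100727, plus strand, and its exons overlap AC167363.2 on the opposite strand. Whole ganglia had 106, 132 and 117 CPM in SH and 106, 149 and 138 CPM in EE, overlapping groups with a log2 difference of 0.15 (SE 0.11), with 0.048 without EE library 2 and 0.28 without EE library 1. Captured neurons had 7.06, 14.3 and 9.31 CPM in SH and 8.04, 8.84 and 8.08 CPM in EE. SH library 2, with muscle transcripts, was the high one. The captured log2 difference was -0.30 (SE 0.22), and 0.023 without that library.

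Tsc22d3 encodes GILZ, a leucine-zipper protein that carries part of the anti-inflammatory action of glucocorticoids. The gene (ENSMUSG00000031431) lies on chromosome X from 140539528 to 140600659, minus strand. It had 212, 258 and 227 CPM in whole-ganglion SH libraries and 173, 239 and 227 CPM in EE libraries, with a log2 difference of -0.12 (SE 0.11), which was 0.0071 without EE library 1 and -0.21 without EE library 2. In captured neurons it had 133, 93.2 and 131 CPM in SH and 138, 135 and 140 CPM in EE. Each captured EE library lay above each SH library, SH library 2 being far the lowest. The log2 difference of 0.21 (SE 0.12) was 0.058 without SH library 2 and 0.057 (SE 0.062) within lane 3.

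Sgk1 encodes a serine/threonine kinase that regulates ion channels and transporters. The gene (ENSMUSG00000019970) lies on chromosome 10 from 21882184 to 21999903, plus strand. Whole ganglia had 50.6, 63.2 and 51.8 CPM in SH and 38.2, 71.5 and 56.1 CPM in EE. The lowest and the highest library were both EE, and the log2 difference was 0.011 (SE 0.16), with -0.22 without EE library 2 and 0.21 without EE library 1. Captured neurons had 19.3, 12.4 and 16.7 CPM in SH and 16.5, 17.1 and 18.8 CPM in EE, a log2 difference of 0.12 (SE 0.15), and -0.045 without SH library 2.

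Tsc22d3 and Sgk1 were the genes with a receptor hexamer near an annotated start. The windows searched run from 250 bases before to 50 bases after each start in RefSeq (build GRCm38.p6). The receptor's response element is a palindrome of hexamers, and the hexamer AGAACA was sought on both strands (TGTTCT on the other), as was the palindrome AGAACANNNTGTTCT, which contains both. Of the 9 genes, 7 were searched, Zbtb16 having no entry and Nr3c1 being left out. The hexamer was found in 2 of the 7 genes, and in 5750 of the 27025 genes with a window (21.3%), or 6233 of 32851 windows. Sgk1 and Tsc22d3 were also the searched genes with the most windows, so the share per gene is not a like background for them. The palindrome was found in 3 windows of all (0.00913%), and 1 of these is a start of Sgk1. A match is a string of letters, not a measured binding site. The stretches are shown 5′ to 3′ on the gene's strand, hexamers in capitals, so that the spacing of the Sgk1 palindrome can be seen beside the single hexamers. They are at Sgk1 chr10:21993640-21993729 (plus strand, 3 hexamers, the palindrome starting 189 bases before the start at 21993890), Sgk1 chr10:21881959-21882024 and Sgk1 chr10:21992180-21992222 (plus strand), and Tsc22d3 chrX:140600672-140600737 (minus strand, hexamer 185 bases before the start at 140600522). No annotated exon overlaps them.
Sgk1, palindrome: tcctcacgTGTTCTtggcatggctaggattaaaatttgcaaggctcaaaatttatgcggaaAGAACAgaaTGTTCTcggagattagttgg
Sgk1, hexamer 195 bases before a start: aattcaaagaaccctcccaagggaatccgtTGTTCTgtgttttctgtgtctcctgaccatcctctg
Sgk1, hexamer 13 bases before a start: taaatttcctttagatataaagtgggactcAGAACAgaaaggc
Tsc22d3, hexamer: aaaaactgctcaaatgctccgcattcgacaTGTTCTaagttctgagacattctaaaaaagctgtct

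Fkbp5 and Plin4 had no hexamer in these windows. These windows cover a small share of each locus. Nothing about the receptor's action follows from a match or its lack.

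**Figure D3:**
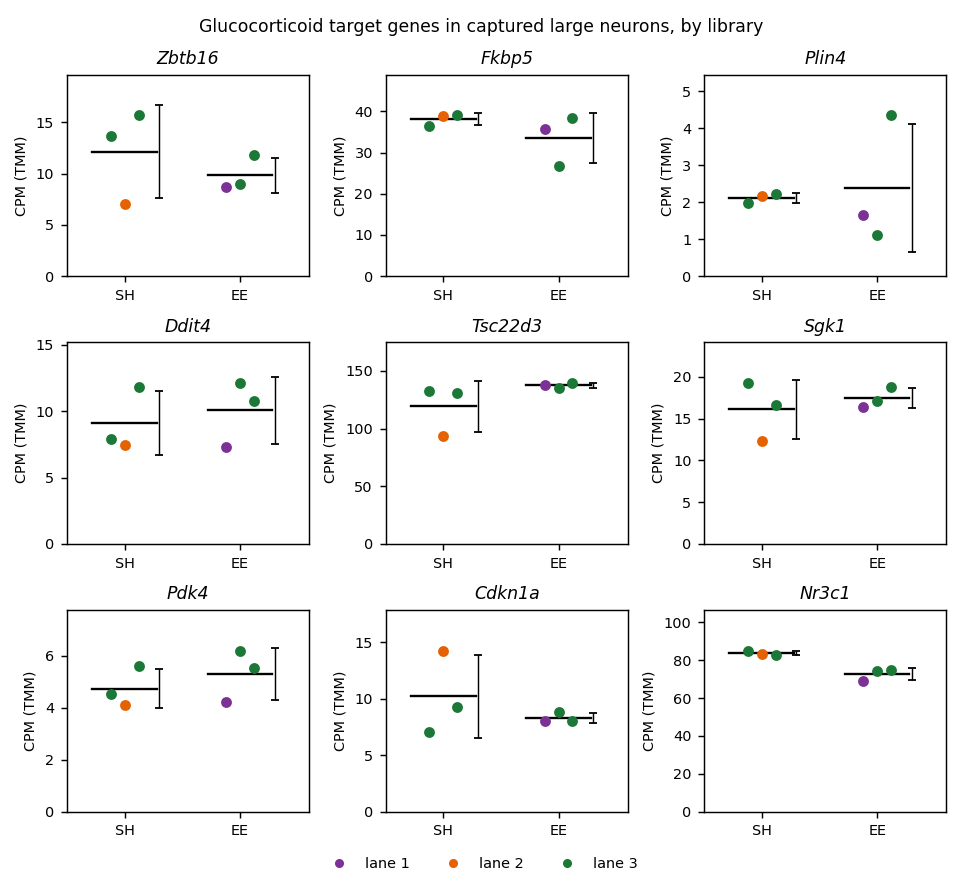
Level of each of the 9 genes in captured large neurons, in CPM on the vertical axis of each panel, with SH and EE on the horizontal axis. Each point is a library and bars are the group mean and SD over 3 libraries. Nr3c1 lies between 82.6 and 85.0 CPM in SH and between 68.9 and 74.7 CPM in EE.

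Counted together, 1 of the 9 genes, Zbtb16, passed the edgeR quasi-likelihood test at a Benjamini-Hochberg adjusted p of 0.05 in whole ganglia, where 0.00631% of all tested genes passed. The call of Zbtb16 was lost with library size alone (adjusted p = 0.0651), by limma on log2 FPKM (adjusted p = 0.447) and in 5 of 6 fits that left out 1 library (adjusted p = 0.0748 to 0.125). DESeq2 called the same gene, 0.00408% of the genes to which it gave an adjusted p, and 4 of the 9 had an unadjusted p under 0.05 in edgeR, as did 2.90% of all. With the shared lane as a replicate block, 4 passed, namely Zbtb16, Plin4 and Fkbp5 (higher in EE) and Ddit4 (lower), where 0.202% of all tested genes passed. Ddit4 lost the call (adjusted p = 0.172) when length and GC content were also corrected for, where 0.145% of tested genes passed. In captured neurons 0 of the 9 passed, where 0.0185% of tested genes did, and 1 had an unadjusted p under 0.05, as did 15.9% of all. DESeq2 gave 6 of the 9 an adjusted p there and called 0 (none was given for Plin4, Pdk4 and Cdkn1a), where it called 5.53% of the genes with one. Lane 3 alone called 0, where 4.06% of tested genes passed. The set was chosen with these comparisons known, so nothing is read from these counts.

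Of the 9 genes, 1 had every whole-ganglion EE library above every SH library, as did 3.19% of tested genes, and 0 had every one below, as did 4.29%. In captured neurons 1 of the 9 (Tsc22d3) lay above, where 10.2% of tested genes did, and 1 (Nr3c1) below, where 10.9% did. By lane pair, 3 of the 9 were higher in EE in all 3 lanes, where 11.8% of tested genes were, and 1 was lower in all 3, where 11.8% were. Higher values in EE were seen for 4 genes in lane 4, 7 in lane 5 and 7 in lane 6. The median log2 ratio of all tested genes was -0.0004, -0.0004 and -0.001 in these lanes. Some of the counted ratios were near 0, such as 0.0041 for Tsc22d3 in lane 6 and 0.0054 for Nr3c1 in lane 5. The genes that were higher in lanes 5 and 6 but not in lane 4 were Sgk1, Cdkn1a and Nr3c1.

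Most of the 9 genes ranked the whole-ganglion libraries alike. SH library 1 was the lowest of its group for 7 genes and EE library 1 for 7, both from lane 4. EE library 2 was the highest of its group for 8 genes, all but Nr3c1, and SH library 2 for 6, both from lane 5. Nr3c1 went the other way, with its highest value in library 1 of both housings. Markers of other cell types varied over the same libraries. Libraries 1, 2 and 3 had endothelial sums of 112, 139 and 130 CPM in SH and 103, 138 and 127 CPM in EE, and Schwann cell sums of 7430, 8376 and 6851 CPM in SH and 5997, 8620 and 7212 CPM in EE. With the adipocyte sums given above, these lists too were highest in library 2 of both housings. So were the sums of satellite glia, fibroblast, neutrophil and lymphocyte markers, but not those of erythrocyte, macrophage and neuron markers. The share of all tested genes with this ranking is not given here, so it is not shown to be particular to the 9. Skeletal muscle sums were 3.89, 14.2 and 156 CPM in SH and 10.5, 205 and 69.1 CPM in EE. The part of these cell types in the values of the 9 genes was not tested. Across the 6 whole-ganglion libraries, log2 levels of Fkbp5 and Plin4 correlated at Pearson r = 0.99, of Ddit4 and Tsc22d3 at 0.92, of Tsc22d3 and Sgk1 at 0.91 and of Sgk1 and Cdkn1a at 0.87. Plin4 and Nr3c1 correlated at -0.82, and Pdk4 and Nr3c1 at -0.84. Over the 6 captured libraries the same pairs gave 0.74 for Fkbp5 and Plin4, 0.42 for Ddit4 and Tsc22d3, 0.91 for Tsc22d3 and Sgk1, -0.96 for Sgk1 and Cdkn1a, 0.14 for Plin4 and Nr3c1 and -0.12 for Pdk4 and Nr3c1. These points are few, and lane and depth vary among the libraries of each preparation, so the correlations are a description.

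Among 14087 genes with an average log2 CPM of at least 1, those most like Zbtb16 over the 6 whole-ganglion libraries were Trank1, Zdbf2, Zfp280b, Abcb10 and Ptcd1 (Pearson r of 0.98, 0.98, 0.98, 0.97 and 0.97). Of these, Trank1 and Zdbf2 had log2 differences with housing of 0.50 and 0.46, and the other 3 of 0.12 to 0.17. The genes most like Fkbp5 were Fads3, Plin4, Maff, Angpt2 and Sdc3 (r of 0.99, 0.99, 0.98, 0.98 and 0.98). The genes most like Plin4 were Sdc3, Galnt16, Pdgfra, Fads3 and Fkbp5, each at 0.99. Sdc3 and Fads3, on both lists, had housing differences of 0.088 and 0.10 on the log2 scale, far below the 1.16 of Plin4.

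Set side by side, 5 of the 9 genes had differences of opposite sign in the preparations and 4 the same sign, though 1 library sets the sign for several of them, as given above. Among all tested genes, 51.3% had positive differences in whole ganglia and 49.9% in captured neurons. The share of them with opposite signs is not given here, so the count is not shown to be particular to the 9. The difference of the housing effect, captured minus whole, was -1.75 for Zbtb16 (SE 0.37), -0.53 for Fkbp5 (SE 0.20), -0.99 for Plin4 (SE 0.72) and 0.51 for Ddit4 (SE 0.30), all on the log2 scale. For Tsc22d3 it was 0.32 (SE 0.18), for Cdkn1a -0.47 (SE 0.25) and for Nr3c1 -0.18 (SE 0.10). Sgk1 and Pdk4 had differences of 0.097 and -0.017, smaller than their SE. The edgeR interaction test called 0 of 17412 genes (0%), with 2034 (11.7%) at an unadjusted p under 0.05, Zbtb16 and Fkbp5 among them. DESeq2 called 160 genes, 1.94% of those with an adjusted p, and gave no adjusted p for Zbtb16. The preparations also differed in kit, RNA integrity, read length, lanes, mice and the unexplained word Sham, so cell type and preparation cannot be told apart. RNA integrity numbers were at least 7.5 for whole ganglia and 6 to 7 for captured neurons, and reads had 100 and 125 bases.

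**Figure D4:**
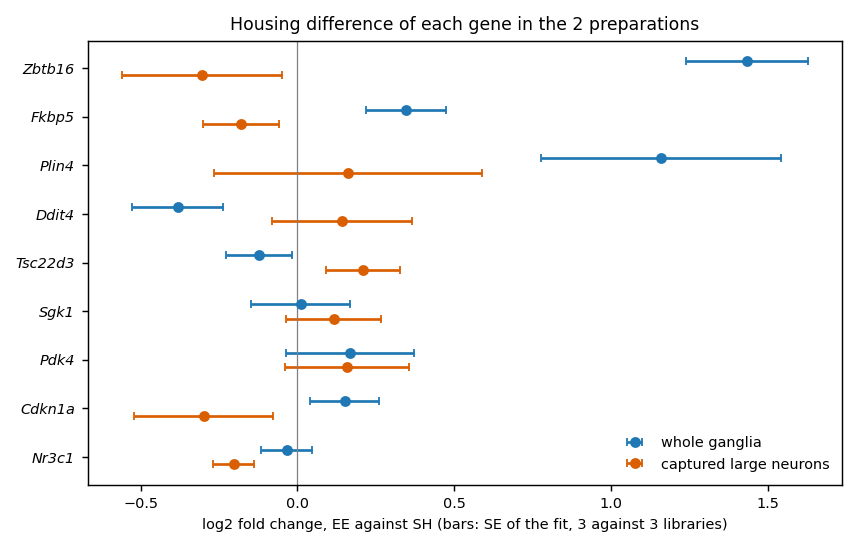
Log2 fold change of EE against SH (horizontal axis) for each of the 9 genes (vertical axis) in whole ganglia and captured large neurons. Points are the fitted difference and bars its SE, from 3 against 3 libraries. Zbtb16 stands at 1.43 in whole ganglia and -0.30 in captured neurons, whereas the bars of Sgk1 and of Pdk4 overlap between preparations.

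Levels per length give the order of the genes. In whole ganglia of SH mice the authors' FPKM was 53.4 ± 5.56 for Tsc22d3, 53.0 ± 6.04 for Cdkn1a and 48.0 ± 5.78 for Ddit4 (SD, n = 3 each). These 3 did not differ beyond their spread. Sgk1 at 11.2 ± 1.44 FPKM and Fkbp5 at 10.9 ± 2.00 FPKM formed the next pair, also within their spread. Nr3c1 had 6.71 ± 0.56 FPKM and Pdk4 5.47 ± 1.17 FPKM, ranges that overlapped. Plin4 at 1.87 ± 0.98 FPKM and Zbtb16 at 0.91 ± 0.29 FPKM were the lowest, again with overlapping ranges. Zbtb16, the only gene whose whole-ganglion groups did not overlap, thus had the lowest SH mean of the 9 per length.

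Captured neurons of SH mice had another order. Tsc22d3 led at 27.2 ± 5.57 RPKM, and Nr3c1 followed at 11.2 ± 0.32 RPKM. RPKM here is CPM by library size alone, divided per kilobase by the length that the whole-ganglion FPKM imply. Fkbp5 at 5.93 ± 0.20 RPKM, Ddit4 at 5.34 ± 1.45 RPKM and Cdkn1a at 4.53 ± 1.55 RPKM overlapped in part. Below them by mean came Sgk1 (3.26 ± 0.76 RPKM), Zbtb16 (2.37 ± 0.91 RPKM), Pdk4 (1.34 ± 0.23 RPKM) and Plin4 (0.36 ± 0.021 RPKM). The range of Sgk1 (2.45 to 3.96 RPKM) overlapped that of Cdkn1a (3.19 to 6.22 RPKM). The range of Zbtb16 (1.33 to 3.07 RPKM) overlapped those of Sgk1 and Pdk4. In SH CPM by library size alone, without TMM factors, Zbtb16 was 2.60-fold and Nr3c1 1.66-fold higher in captured neurons than in whole ganglia. The other 7 were higher in whole ganglia, from Cdkn1a (11.7-fold) and Ddit4 (8.99-fold) over Plin4 (5.12-fold), Pdk4 (4.09-fold) and Sgk1 (3.44-fold) to Tsc22d3 (1.96-fold) and Fkbp5 (1.83-fold). These ratios carry no test, since the tables were made by different kits.

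A list of 26 further targets of the receptor had 0 genes past the threshold in whole ganglia by edgeR (1 with an unadjusted p under 0.05, where 2.90% of all genes had one) and 0 by DESeq2 or with the replicate block. Their log2 differences ran from -0.33 to 0.44 with a median of 0.038, and 15 were positive, beside a median of 0.0028 and 51.3% positive over all tested genes. The 4 with the smallest p were Per1, a clock gene, at -0.21 (SE 0.093), Dusp1, a MAP kinase phosphatase, at 0.18 (SE 0.086), Fbxo32, a ubiquitin ligase of muscle atrophy, at 0.28 (SE 0.14) and Arrdc2 at 0.32 (SE 0.17). In captured neurons 25 of the 26 were tested, 0 passed by edgeR and 4 had an unadjusted p under 0.05, a share near the 15.9% of all tested genes. Their median was 0.0026, with 13 positive, beside -0.0006 and 49.9% over all tested genes.

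Those 4 were Mt1 and Mt2, metallothioneins that bind zinc and copper, the lipase inhibitor Angptl4, and the transcription factor Foxo3. Mt1 had 16.2 ± 0.37 CPM in SH and 21.4 ± 1.76 CPM in EE (SD, n = 3 each), a log2 difference of 0.40 (SE 0.097). Angptl4 had 5.36 ± 0.93 and 8.70 ± 1.37 CPM, a difference of 0.70 (SE 0.18). Foxo3 had 134 ± 12.1 and 109 ± 1.48 CPM, a difference of -0.29 (SE 0.075), and Mt2 a difference of 0.34 (SE 0.12). DESeq2 called 2 of the 14 genes to which it gave an adjusted p, Mt1 and Foxo3, beside 5.53% of all such genes. Lane 3 alone called 1, Angptl4, higher in EE, a share near the 4.06% of all tested genes. Angptl4 is also made by fat cells, and the adipocyte marker sums of the captured libraries given above were high in EE libraries 1 and 3. EE library 2 had a marker sum of 0.457 CPM. For Angptl4 every EE library lay above every SH library, the lowest EE value being 7.37 CPM and the highest SH value 5.95 CPM. The part of fat cells in the Angptl4 values was not tested.

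The receptor's machinery, a list of 14 genes with the related mineralocorticoid receptor Nr3c2, chaperones and co-chaperones, hormone-converting enzymes, coactivators and corepressors, had 13 tested genes in whole ganglia. Of these, 0 passed by edgeR, 0 had an unadjusted p under 0.05 and 0 passed by DESeq2. Among those with the smallest p there were H6pd, Ncor1 and Fkbp4, with log2 differences of 0.14, 0.059 and -0.051. In captured neurons 0 of 12 passed by edgeR, 7 had an unadjusted p under 0.05 beside 15.9% of all genes, and DESeq2 called 2 of 11, Fkbp4 among them, beside 5.53% of all. Fkbp4, the immunophilin FKBP52 that opposes FKBP51 in the receptor complex, had 213 ± 21.3 CPM in SH and 260 ± 14.2 CPM in EE, a difference of 0.28 (SE 0.082). The co-chaperone Stip1 and the coactivator Ncoa2 had differences of 0.20 (SE 0.063) and -0.21 (SE 0.069).

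Clock genes were listed because glucocorticoids set the phase of peripheral clocks and Per1 and Per2 are direct targets of the receptor. In whole ganglia 0 of 14 passed by edgeR or DESeq2, with 3 at an unadjusted p under 0.05 (2.90% of all genes) and a median log2 difference of -0.0074. The 4 with the smallest p were Npas2 at 0.71 (SE 0.27), Per1, given above, Dbp at -0.25 (SE 0.11) and Per2 at -0.20 (SE 0.14). In captured neurons 0 of 14 passed by edgeR and 6 had an unadjusted p under 0.05, beside 15.9% of all genes. There 3 were positive and 11 negative, with a median of -0.13. DESeq2 called 2 of the 8 genes to which it gave an adjusted p, Per2 and Per3, beside 5.53% of all such genes. Lane 3 alone called the same 2, both lower in EE, beside 4.06% of all.

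Per2 had 16.9 ± 2.13 CPM in SH and 10.4 ± 0.68 CPM in EE in captured neurons (SD, n = 3 each), a difference of -0.69 (SE 0.12, edgeR adjusted p = 0.0898). Per3 had 26.7 ± 2.11 and 18.2 ± 1.19 CPM, a difference of -0.55 (SE 0.096, edgeR adjusted p = 0.0898). For both, every EE library lay below every SH library. Nr1d1, a repressor of the clock, had a difference of 0.68 (SE 0.22) and the repressor Cry1 one of -0.36 (SE 0.13). No label used here gives the hour at which tissue was taken.

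**Figure D5:**
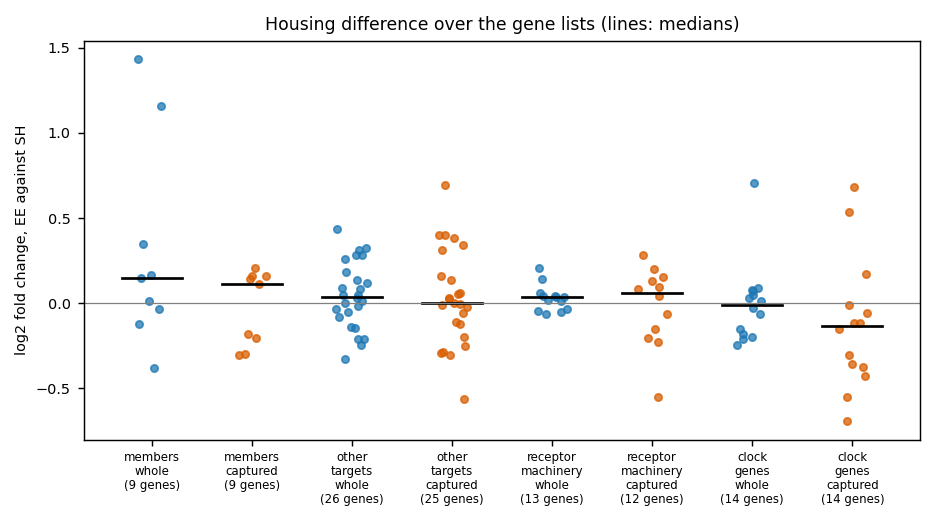
Log2 fold change of EE against SH (vertical axis) for each tested gene of 4 lists in whole ganglia and in captured neurons (horizontal axis), where members are the 9 genes described here. Each point is a gene and each line the median of the list. Medians lie between -0.13 (clock genes, captured neurons) and 0.15 (the 9 genes, whole ganglia).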

How the data were processed

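RNA-seq of 12 libraries was analysed from tables the authors deposited. Deposited read counts per gene name were whole numbers, and the authors' FPKM of whole ganglia were per length. The authors' second table of captured neurons held a signal, counts times 1 constant per library. Roles of the tools in the submitters' processing notes (TopHat2 2.0.12, HTSeq 0.6.0, build mm10, among others) are not stated. Names of the whole-ganglion columns carry the word Sham, unexplained by the labels. The 5 summary rows were left out (reads outside features 47.0 to 47.6% in whole ganglia and 28.0 to 36.3% in captured neurons).

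The 9 genes and all lists were chosen with earlier results of these data known. Each preparation was fitted on the counts with edgeR 4.0.16 (filterByExpr, TMM, quasi-likelihood test, Benjamini-Hochberg over all tested genes at 0.05) in R 4.3.3, and the interaction over all libraries. Named were the 9 genes, each list's called genes or else its 4 with the smallest p, the 5 genes most like Zbtb16, Fkbp5 and Plin4, and defining markers. A gene that this rule names is not reported here. Alternatives used DESeq2 1.42.0 and limma 3.58.1 (on log2 of the FPKM or signal with 1 added). Scripts were tested on simulated data.

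Replicate numbers pair whole-ganglion libraries through the lanes in the labels. Deviations from group means correlated at 0.41, 0.18 and 0.088 within numbers, and at 0.26 between EE 2 and SH 3. Replicates differed beyond counting noise (chi-square per degree of freedom 3.95 to 21.5). Positions are from GENCODE vM21, promoters from RefSeq GRCm38.p6. A wider search of 5000 bases was planned but no genome was used here.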

Additional observations from a re-analysis of the deposited data

Results flagged for a closer look

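The summed CPM of 3 marker lists differed with housing in opposite directions in the preparations. Every EE sum lay below every SH sum in whole ganglia and above in captured neurons. The difference between preparations was not tested. For satellite glia it was 0.49 on the log2 scale (captured 0.35, whole -0.14), for sensory neurons 0.26 (0.18 and -0.074) and for large neurons 0.65 (0.51 and -0.14). Each sum is carried by the genes with the most reads, such as Apoe, Snap25, Tubb3 and Nefl. Not every gene followed its list. In captured neurons the groups overlapped for Kcnj10 and Ednrb of satellite glia and for Avil, Rbfox3 and Uchl1 of sensory neurons. They also overlapped for Ntrk3, Pvalb, Spp1, Nefh and Nefm, that is, for every large-neuron marker but Nefl. These sums are therefore no measure of the cell types as a whole.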

How the results depend on the processing

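The count of genes called in whole ganglia, 1 by edgeR, was 0 with library size alone, 0 with limma on log2 FPKM, 48 without the filter, 32 with the replicate block and 21 with the block and a correction for length and GC chosen after seeing the data. Leaving out 1 library gave 0 to 2. Zbtb16 passed only without SH 3 among those (adjusted p 0.0318), the others giving 0.0748 to 0.125. With the block and the correction, Ddit4 no longer passed (adjusted p 0.172). In captured neurons, the count of 3 was 106 at an adjusted p of 0.1, 1 at an average log2 CPM of at least 3, 528 by DESeq2, 658 in lane 3 alone, 168 by limma on log2 of the second table, 902 without the filter, 0 with the replicate block (numbers that share no lane except for replicate 3), and 0 to 602 leaving out 1 library, 602 being without EE 1. For the difference of the housing effect, 0 became 1 at the higher average, 160 by DESeq2, 457 without the filter and 0 to 233 leaving out 1 library. The 233 were without captured EE 1, and Zbtb16 was among them (adjusted p 0.0440). The cause of these changes was not tested. Depth limits Plin4 in captured neurons, at 22 to 95 reads per library.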
